A study of Mus musculus with 7 samples.

Results

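Eccentric spiny projection neurons (eccentric SPNs) were studied in single nuclei from mouse striatum. They were the nuclei that the authors' deposited annotation calls eccentric medium spiny neurons, 166 of 4524 nuclei in 12 types, or 3.67%. They were set against 1809 direct-pathway SPNs (dSPNs) and 941 indirect-pathway SPNs (iSPNs) of the same annotation. All 7 mice of the series gave eccentric SPNs. Of these mice, 4 were male C57BL6/J animals with 1 copy of HttQ175 (HttQ175/+), a knock-in allele used as a model of Huntington's disease, in which the CAG repeat of the mouse's own Htt gene is expanded. The others were 3 male wild-type (WT) C57BL6/J mice with no such allele. HttQ175/+ replicate 1 was 15 months old and the other 6 mice were 14 months old, and the labels give no treatment. Striatal nuclei of each mouse went into 1 library of transcript 3' ends. Replicates are mice, and their numbers serve as names. The knock-in allele is carried by every cell of the animal, and reads at 3' ends do not show the repeat.

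SPNs are the GABAergic output neurons of the striatum. Most belong to the direct pathway, with the dopamine receptor gene Drd1 and the neuropeptide gene Tac1, or to the indirect pathway, with the dopamine receptor gene Drd2, the adenosine receptor gene Adora2a and the neuropeptide gene Penk. Eccentric SPNs are a rarer population known from single-cell atlases of mouse striatum, which carry general SPN genes but differ from both classes in many other transcripts. SPNs are the neurons most affected in Huntington's disease.

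HttQ175/+ replicates 1 to 4 gave 29, 46, 15 and 35 eccentric SPNs, 125 in all, and WT replicates 1 to 3 gave 13, 8 and 20, 41 in all. Unique molecular identifiers (UMIs, each standing for 1 captured RNA) summed over these nuclei to 57484, 69232, 32798 and 57688 in the HttQ175/+ mice and to 29867, 16579 and 47710 in the WT mice. Single eccentric SPNs held 1142 to 4399 UMIs, with a median of 1708, against medians of 2175 in dSPNs and 2036 in iSPNs. The median per mouse was 2033, 1444, 2203 and 1599 UMIs in HttQ175/+ and 2381, 2053.5 and 2390 UMIs in WT, and the groups overlapped. Their means were 1820 ± 357 UMIs (SD, n = 4) and 2275 ± 192 UMIs (SD, n = 3). The difference of -455 UMIs had p = 0.114 in an exact two-sided permutation test over 35 splits of the mice, in which the smallest possible p is 0.0571. The part of this depth in the genotype results was not tested. No eccentric SPN shared its barcode with a nucleus of another library, and Scrublet marked none as a doublet.

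Among nuclei of the 3 SPN types, eccentric SPNs made up 5.46% (95% exact interval 3.69 to 7.75), 5.62% (4.14 to 7.42), 5.26% (2.98 to 8.53) and 8.88% (6.27 to 12.1) in HttQ175/+ replicates 1 to 4. In WT replicates 1 to 3 they made up 4.78% (2.57 to 8.03), 3.90% (1.70 to 7.54) and 4.88% (3.00 to 7.43). All 4 HttQ175/+ shares stood above the 3 WT shares, HttQ175/+ replicate 4 stood far above the other mice, and every interval of an HttQ175/+ mouse overlapped that of every WT mouse. These shares are a description without a test, because the authors' clustering set them. Intervals here cover counting error only.

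The 5 marker genes that name the type were all higher in eccentric SPNs than in dSPNs and iSPNs, although in single nuclei each was read in a minority of eccentric SPNs. Levels are given in CPM, the gene's share of a nucleus' UMIs scaled to 1000000 and averaged over the nuclei of a mouse, and then as mean ± SD over 7 mice. Comparisons between types carry no test, because the clusters were formed from the expression of these nuclei. Col11a1, which codes for a chain of fibrillar collagen, averaged 334 ± 173 CPM in eccentric SPNs, 34.9 ± 26.6 CPM in dSPNs and 24.98 ± 20.7 CPM in iSPNs. Otof, whose product otoferlin is a calcium sensor of vesicle release in inner ear hair cells, averaged 306 ± 119 CPM in eccentric SPNs, 29.8 ± 7.40 CPM in dSPNs and 10.4 ± 4.84 CPM in iSPNs. For both genes the lowest eccentric value of any mouse, 147 CPM for Col11a1 and 109 CPM for Otof, was above the highest dSPN values of 72.1 and 39.6 CPM. Casz1, a zinc finger transcription factor, averaged 170 ± 100 CPM, against 5.28 CPM in dSPNs and 2.09 CPM in iSPNs. Cacng5, an auxiliary subunit of AMPA receptors, averaged 61.6 ± 53.1 CPM against 6.03 and 3.27 CPM. Pcdh8, an adhesion protein of the protocadherin family, averaged 77.7 ± 117 CPM against 1.81 and 1.08 CPM, but WT replicate 2 held 337 CPM and WT replicate 1 none, so its mean rests largely on 1 mouse. In the GENCODE vM21 annotation of the mm10 build, Col11a1 lies on chromosome 3 from 114030540 to 114220718, Otof on chromosome 5 from 30367062 to 30461932 and Casz1 on chromosome 4 from 148804429 to 148954889.

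Across the 12 annotated types, eccentric SPNs had the highest mean level of Otof, Casz1 and Cacng5. They stood second for Col11a1, at 334 CPM against 362 CPM in Sst interneurons, which is within the spread over mice. They also stood second for Pcdh8, at 77.7 CPM against 123 CPM in the interneuron cluster named for Pnoc and Pvalb.

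**Figure D1:**
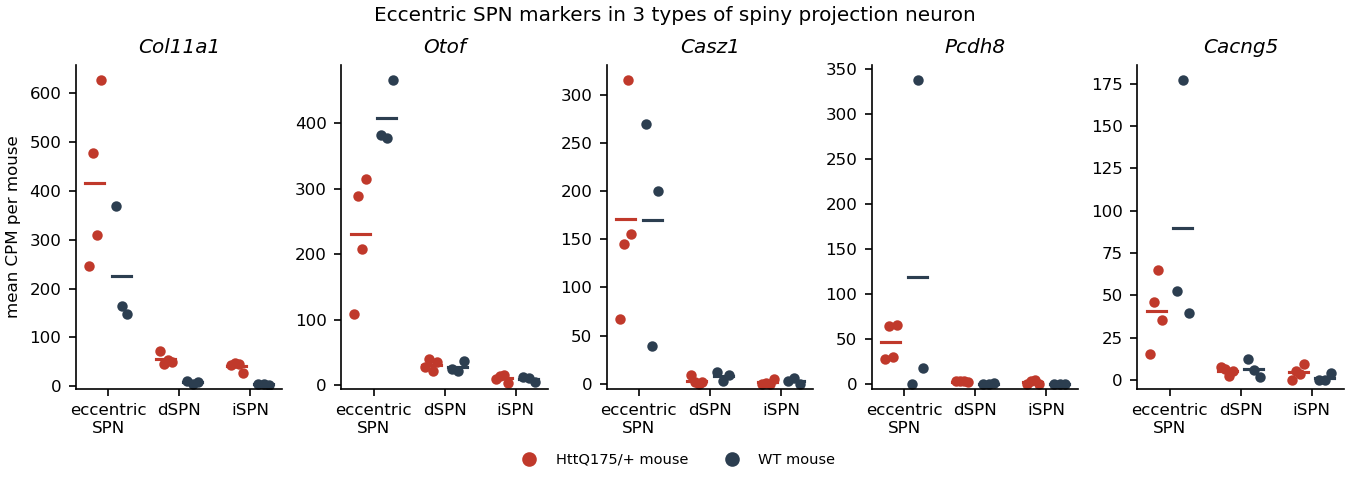
Mean CPM per mouse of the 5 eccentric SPN markers (vertical axes) in eccentric SPNs, dSPNs and iSPNs, with 1 point per HttQ175/+ or WT mouse and a bar at each group's mean. For Col11a1 and Otof every eccentric SPN point is above every dSPN and iSPN point.

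In single nuclei, a Col11a1 UMI was found in 67 of 166 eccentric SPNs, or 40.4% (95% exact interval 32.8 to 48.2), against 7.52% of dSPNs and 5.21% of iSPNs. Otof was read in 54 eccentric SPNs (32.5%, 25.5 to 40.2), against 5.86% of dSPNs and 1.81% of iSPNs. Casz1 was read in 39 (23.5%, 17.3 to 30.7), against 1.11% of dSPNs and 0.425% of iSPNs. Oligodendrocytes, taken as a type that should lack these genes, had UMIs of Col11a1 in 7.05%, of Otof in 4.91% and of Casz1 in 2.35% of nuclei, at a median depth of 2158.5 UMIs. With each nucleus thinned to 1100 UMIs, the eccentric shares were 29.5% for Col11a1, 24.7% for Otof and 18.7% for Casz1. Pcdh8 was read in 13 eccentric SPNs (7.83%, 4.24 to 13.0) against 2.14% of oligodendrocytes, and Cacng5 in 12 (7.23%, 3.79 to 12.3) against 2.56%.

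At least 1 of the 5 markers was read in 110 of 166 eccentric SPNs (66.3%), in 260 of 1809 dSPNs (14.4%) and in 72 of 941 iSPNs (7.65%). At least 2 were read in 59 eccentric SPNs (35.5%), 29 dSPNs (1.60%) and 7 iSPNs (0.744%). The share with at least 1 marker was close in the genotypes, 83 of 125 (66.4%) in HttQ175/+ and 27 of 41 (65.9%) in WT.

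The 56 eccentric SPNs without a marker UMI were as deep as the 110 with one, at medians of 1710 and 1705 UMIs, but carried other genes at different rates. Ntng1, which codes for the axon guidance protein netrin-G1, was read in 59.1% of nuclei with a marker and 23.2% of those without. Foxp2, a forkhead transcription factor, was read in 62.7% and 33.9% of them. Atp2b4, which codes for a calcium pump of the plasma membrane, was read in 54.5% and 28.6%. Ebf1, a transcription factor of dSPNs, went the other way, with 3 nuclei (2.73%) among those with a marker and 13 (23.2%) among those without. Meis2, a homeobox factor found across SPNs, was read in 62.7% and 66.1%. The 54 eccentric SPNs with an Otof UMI also carried Tac1 in 50.0% and Ntng1 in 74.1% of nuclei, against 15.2% and 33.9% of the 112 without. Nuclei with Otof were deeper, at a median of 1974.5 UMIs against 1677; thinned to 1100 UMIs, Tac1 was read in 19 of 41 nuclei with Otof and 20 of 125 without, and Ntng1 in 24 and 34 of them.

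Eccentric SPNs carried the direct-pathway genes Drd1 and Tac1 at mean levels nearer to dSPNs than to iSPNs, though not in every mouse. Drd1 was read in 50 eccentric SPNs (30.1%, 23.3 to 37.7), in 42.3% of dSPNs, in 3.93% of iSPNs and in 15.0% of oligodendrocytes. Thinned to 1100 UMIs, these shares were 19.3%, 30.1%, 3.08% and 9.62%. By level, Drd1 averaged 268 CPM in eccentric SPNs, 376 CPM in dSPNs and 27.5 CPM in iSPNs, and Tac1 averaged 495, 351 and 30.4 CPM in the same order. Over mice, Drd1 in eccentric SPNs ranged from 0 to 448 CPM, with HttQ175/+ replicate 3 at 0, and Tac1 from 223 to 1113 CPM. Drd2 was read in none of the 166 eccentric SPNs, which by a limit of 3 counts allows a share of up to 1.81% of nuclei with a UMI, against 64 iSPNs (6.80%). Since few iSPNs gave a Drd2 UMI, this does not limit the share of nuclei that express the gene. Penk was read in 7.83% of eccentric SPNs and 10.5% of oligodendrocytes, and Adora2a in 7.83% and 13.7%, so neither share is read as expression; dSPNs had them in 3.54% and 5.53%. Ebf1 was read in 9.64% of all eccentric SPNs, 5.63% of iSPNs and 14.7% of oligodendrocytes, and in the 23.2% given above of eccentric SPNs without a marker; its level was 61.1 CPM in eccentric SPNs against 276 CPM in dSPNs. Foxp2 averaged 585 CPM in eccentric SPNs, 337 CPM in dSPNs and 62.1 CPM in iSPNs.

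Beyond the markers, 12 genes were named for the largest excess in eccentric SPNs over both other SPN types, and they had varied roles. Other types did not enter this choice. Camk2d averaged 284 CPM in Sst interneurons and 614 CPM in the interneuron cluster named for Chat. Adarb2 averaged 127 CPM in Sst interneurons and 133 CPM in oligodendrocyte progenitors, so both genes were higher there than in eccentric SPNs. Atp2b4, Ntng1, Sema5b, Tshz1 and Col27a1 were highest in eccentric SPNs among the 12 types. Atp2b4, on chromosome 1 from 133699457 to 133801041, ranged over mice from 282 to 684 CPM in eccentric SPNs with a median of 378 CPM, from 14.2 to 51.6 CPM in dSPNs with a median of 30.7, and from 18.9 to 49.2 CPM in iSPNs with a median of 32.6. The ranges were far apart, and the mean log2 differences within a mouse were 2.38 against dSPNs and 2.33 against iSPNs. Ntng1 averaged 511 CPM in eccentric SPNs, 72.3 CPM in dSPNs and 74.4 CPM in iSPNs. Sema5b, a semaphorin of axon guidance, averaged 230, 39.0 and 23.1 CPM in the same order. The calcium-dependent kinase subunit Camk2d averaged 204, 30.6 and 10.5 CPM, and Cpne7, a copine that binds membranes in the presence of calcium, 179, 7.07 and 12.2 CPM. By the rule that named them, all of these were higher than in dSPNs and in iSPNs in each of the 7 mice.

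Pcdh15, a cadherin known from the tip links of hair cells, averaged 144 CPM in eccentric SPNs, 5.16 CPM in dSPNs and 3.28 CPM in iSPNs. The fibrillar collagen gene Col27a1 averaged 186, 3.34 and 2.49 CPM in the same order, but ranged from 13.5 to 502 CPM over mice in eccentric SPNs. Tshz1, a teashirt zinc finger factor, averaged 202, 31.4 and 27.8 CPM. The cation channel gene Trpm3 averaged 102, 8.52 and 7.19 CPM, and Adarb2, a brain relative of the RNA-editing adenosine deaminases, 103, 8.92 and 1.63 CPM. The growth factor receptor gene Fgfr1 averaged 155, 17.4 and 21.04 CPM, and Gpc6, a glypican, 193, 35.6 and 39.0 CPM. By the same rule, each was higher than in both other types in all 7 mice.

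Among the 12 genes named for the largest deficit in eccentric SPNs, 4 are encoded in mitochondria. The cytochrome oxidase subunit mt-Co3 averaged 105 CPM in eccentric SPNs, 379 CPM in dSPNs and 410 CPM in iSPNs, and the ATP synthase subunit mt-Atp6 averaged 76.3, 350 and 320 CPM. Summed mitochondrial transcripts were 492, 1232, 264 and 155 CPM in eccentric SPNs of HttQ175/+ replicates 1 to 4 and 416, 262 and 1439 CPM in those of WT replicates 1 to 3. The dSPN sums ran from 971 to 3384 CPM and the iSPN sums from 863 to 3922 CPM, so the ranges overlapped between types although 7 of 8 measured mitochondrial genes were lower than in each other type in every mouse, or 5 and 6 of 8 without scaling. In nuclei such transcripts come from outside the nucleus, and their part in other differences was not tested.

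Ryr3, a calcium release channel of the endoplasmic reticulum, averaged 165 CPM in eccentric SPNs, 577 CPM in dSPNs and 582 CPM in iSPNs. Rasgrp2, an exchange factor for Rap proteins that responds to calcium, averaged 76.2, 301 and 373 CPM. Prkcb, a protein kinase C, averaged 140, 475 and 520 CPM, and Camk2n1, an inhibitor of calcium/calmodulin kinase II, 131, 418 and 411 CPM. Ccnd2, a D-type cyclin, averaged 30.9, 166 and 226 CPM, and Fnbp1l, an adaptor of actin assembly, 243, 687 and 635 CPM. By the rule that named them, all 6 genes were lower in eccentric SPNs than in both other types in each of the 7 mice. Chchd2, whose product acts in mitochondria, gave only 3 UMIs in all eccentric SPNs, all in 1 mouse, against levels of 92.3 CPM in dSPNs and 105 CPM in iSPNs.

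**Figure D2:**
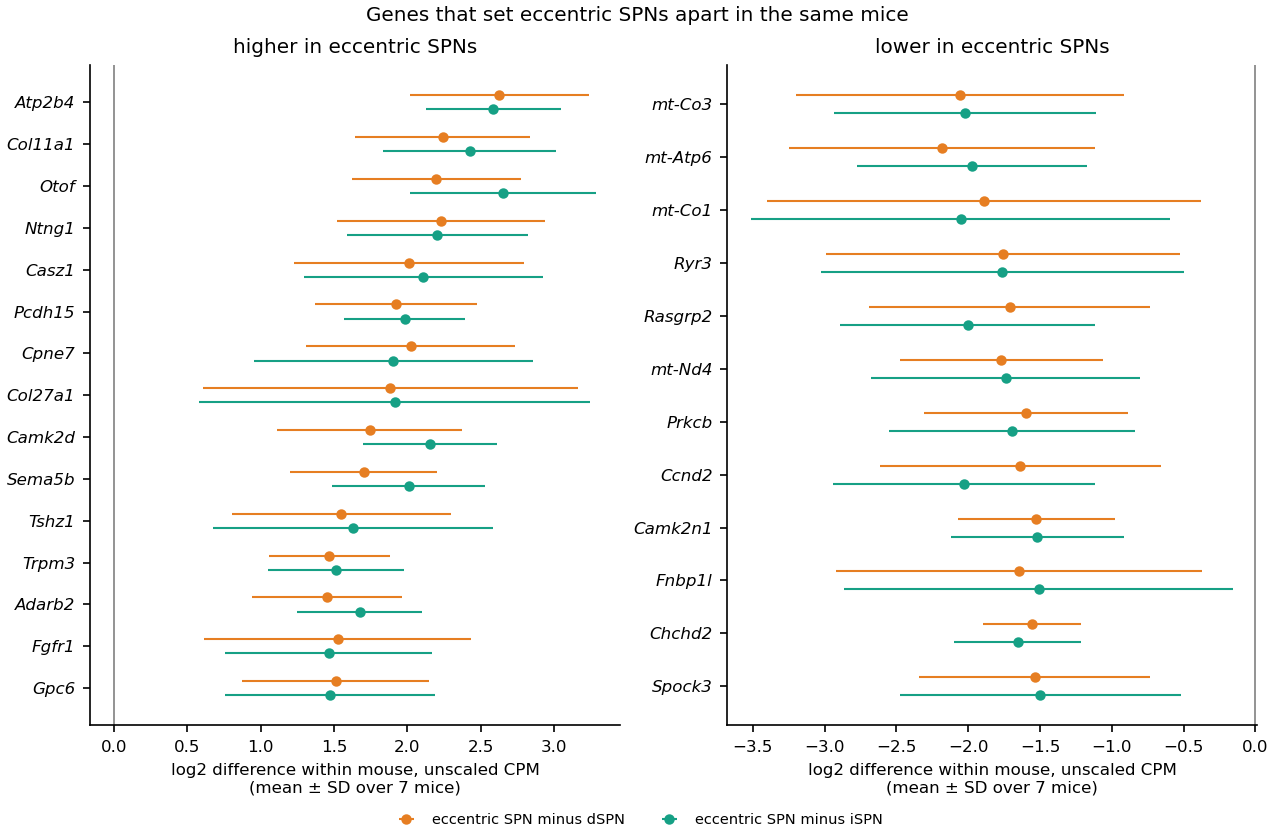
Log2 difference of unscaled CPM between eccentric SPNs and dSPNs, or iSPNs, of the same mouse (horizontal axes) for the 15 genes with the largest excess and the 12 with the largest deficit; points are means and bars SDs over 7 mice. The largest excess over dSPNs is that of Atp2b4 (left), and the mitochondrial gene mt-Atp6 and other genes lie below 0 (right).

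Required to be at least 2-fold apart in every mouse after scaling by trimmed means of M values (TMM), few genes remained. Against dSPNs, 3 of 11941 genes were higher (0.0251%), Atp2b4, Col11a1 and Cpne7, and 6 were lower (0.0502%), Actn1, Camk2n1, Chchd2, Ebf1, Pde1b and Ryr3. Against iSPNs, 7 of 10784 were higher (0.0649%), Atp2b4, Camk2d, Col11a1, Foxp2, Otof, Pcdh15 and Tac1, and 15 were lower (0.139%), among them Adora2a, Calb1, Camk4, Pde1b, Rasgrp2 and Ryr3. Without TMM scaling the splits were 8 higher and 1 lower against dSPNs and 10 higher and 4 lower against iSPNs. The median log2 difference of all 5511 genes of at least 50 CPM was -0.28 against both types with scaling, and -0.06 against dSPNs and -0.07 against iSPNs without it. Differences of gene groups are to be read against these medians.

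General SPN genes were lower in eccentric SPNs as a group. Of 33 SPN identity genes, 23 were lower than in dSPNs in every mouse and 24 lower than in iSPNs, and none was higher in every mouse; without scaling the lower counts were 14 and 17, and 2 and 1 genes were higher. Among all genes of at least 50 CPM, 10.4% were lower than in dSPNs in every mouse and 10.3% lower than in iSPNs, or 3.79% and 4.17% without scaling; 0.925% and 1.05% were higher. The median log2 difference of the list was -0.92 against dSPNs and -1.04 against iSPNs, or -0.58 and -0.77 without scaling. Pde1b, a phosphodiesterase activated by calmodulin, averaged 159 CPM in eccentric SPNs, 441 CPM in dSPNs and 460 CPM in iSPNs. Ppp1r1b, which codes for the dopamine-regulated phosphatase inhibitor DARPP-32, averaged 158, 374 and 390 CPM. The forkhead factor Foxp1 averaged 534, 1040 and 1240 CPM, and Ptpn5, the striatum-enriched phosphatase, 479, 978 and 1048 CPM.

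Some SPN genes did not share this deficit. Meis2 averaged 1266 CPM in eccentric SPNs, 957 CPM in dSPNs and 1068 CPM in iSPNs, and the calcium release channel gene Ryr1 averaged 242, 130 and 83.4 CPM. Of 8 measured dSPN identity genes, 4 were lower than in dSPNs in every mouse, with a median log2 difference of -0.67, and the median against iSPNs was 0.93. Of 7 measured iSPN identity genes, 5 were lower than in iSPNs in every mouse, with a median of -1.27, and the median against dSPNs was 0.29. Of 24 genes of dopamine signalling and calcium kinases, 11 were lower than in dSPNs in every mouse and 13 lower than in iSPNs, and 1, Camk2d, was higher in both comparisons; without scaling 6 and 7 were lower and 2 and 2 higher. In axon guidance, 4 of 19 genes were higher and 3 lower than in dSPNs in every mouse, and the ephrin receptor gene Epha5 averaged 454, 239 and 270 CPM in the 3 types.

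Markers of other cell types were near 0 in eccentric SPNs. Summed over all eccentric SPNs, 8 interneuron markers gave 11 UMIs, with Chat, Slc5a7 and Sst at 0, and 5 cortical neuron markers gave 9 UMIs. Astrocyte markers gave 7 UMIs, oligodendrocyte markers 18 with Mag at 0, oligodendrocyte progenitor markers 10, microglial markers 12 with P2ry12 at 0 and endothelial markers 3 with Cldn5 at 0. Neuroblast and progenitor markers were the exception, with 85 UMIs and 264 to 398 CPM in HttQ175/+ mice against 85.05 to 322 CPM in WT mice. Dlx2 was at 0, and the part of these markers in the results was not tested. Other SPNs carried them too, at 107 to 157 CPM in HttQ175/+ and 63.2 to 78.6 CPM in WT dSPNs. In iSPNs the values were 113 to 155 CPM and 67.5 to 106 CPM.

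The genotype comparison asked whether the HttQ175 allele changed the transcripts of eccentric SPNs. No gene passed. limma's moderated test of log2 CPM, with Benjamini-Hochberg adjustment over 5071 genes, gave 0 genes higher and 0 lower in HttQ175/+ than in WT at an adjusted p under 0.05 (0.0% of genes in each direction). The smallest adjusted p was 0.0729. At an unadjusted p under 0.05 there were 458 genes, 341 higher and 117 lower, and limma's voom on summed UMIs called 1 higher and 6 lower. In 309 genes (6.09%) all HttQ175/+ mice stood above all WT mice, and in 127 genes (2.5%) below. Of the 309, 21 had no WT UMI and were tested through the HttQ175/+ mice alone. For any gene, 1 of the 35 splits of the mice puts the groups apart in a given direction.

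The median change over all genes was 0.17 on the log2 scale, against 0.01 in dSPNs and 0.01 in iSPNs. Without scaling it was 0.14, against 0.08 in each of the other types, and without WT replicate 2 it was 0.07 in eccentric SPNs. The median SE of a gene's change was 0.47 in eccentric SPNs, 0.14 in dSPNs and 0.18 in iSPNs. HttQ175/+ nuclei supplied 217202 of the UMIs and WT nuclei 94156, and a filter on summed UMIs admitted 24 genes with no WT UMI and 0 with no HttQ175/+ UMI. For the same 5071 genes, 95 were higher (1.87%) and 164 lower (3.23%) in dSPNs, and 37 higher (0.73%) and 100 lower (1.97%) in iSPNs. These fits share the mice and libraries of the eccentric SPNs.

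The 6 genes of smallest p that were lower in HttQ175/+ eccentric SPNs were Pde10a, Arpp19, Ryr1, Chn1, Cnr1 and Rgs9, and none passed. Pde10a, the striatal phosphodiesterase of cAMP and cGMP, lies on chromosome 17 from 8525372 to 8986648. Its levels were 815, 1014, 1596 and 1425 CPM in HttQ175/+ replicates 1 to 4, against 3681, 2666 and 3184 CPM in WT replicates 1 to 3. Every HttQ175/+ mouse was below every WT mouse, and the log2 change of -1.34 ± 0.27 (SE) had an adjusted p of 0.0729 in limma. The change in Pde10a was -1.33 ± 0.10 in dSPNs and -1.26 ± 0.12 in iSPNs. It passed the threshold under 8 of 18 alternative settings, with adjusted p from 0.000461 to 0.248. Oligodendrocytes had a Pde10a UMI in 52.4% of nuclei and averaged 1060 CPM, from 558 to 1377 CPM over the 7 mice. The levels of HttQ175/+ eccentric SPNs overlapped this range, and how much of them was the nuclei's own RNA was not tested.

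Ryr1 stood at 59.7, 51.3, 58.2 and 230 CPM in HttQ175/+ eccentric SPNs, against 495, 473 and 329 CPM in WT. The groups did not overlap, with HttQ175/+ replicate 4 nearest to WT; the log2 change was -1.84 ± 0.42, with an adjusted p of 0.0839 in limma. Cnr1, the cannabinoid receptor of striatal terminals, stood at 42.4, 108, 90.8 and 101 CPM in HttQ175/+ and 300, 273 and 719 CPM in WT. The groups were again apart, and the log2 change was -1.76 ± 0.43, with an adjusted p of 0.0903 in limma. Rgs9, a regulator of G protein signalling enriched in striatum, stood at 430, 547, 640 and 972 CPM in HttQ175/+ and at 1221, 1776 and 1759 CPM in WT. Its groups did not overlap, and its change was -1.22 ± 0.31, with an adjusted p of 0.0972 in limma.

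Arpp19, a phosphatase inhibitor regulated by phosphorylation, stood at 58.9, 113, 0 and 62.2 CPM in HttQ175/+ and at 206, 547 and 333 CPM in WT. Chn1, a Rac-inactivating chimaerin, stood at 33.0, 27.8, 54.7 and 158 CPM in HttQ175/+ and at 200, 443 and 387 CPM in WT. Both had groups apart, with log2 changes of -2.01 ± 0.46 (adjusted p = 0.0839 in limma) and -1.84 ± 0.44 (adjusted p = 0.0903). In dSPNs and iSPNs the changes were -1.34 and -1.82 for Arpp19, -0.98 and -0.84 for Chn1, -2.08 and -1.06 for Ryr1, -1.76 and -1.92 for Cnr1, and -1.28 and -1.19 for Rgs9.

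Among the genes of smallest p that were higher in HttQ175/+ eccentric SPNs, Meg3, an imprinted long noncoding RNA kept in the nucleus, was read most deeply. Its levels were 33365, 35500, 40672 and 35898 CPM in HttQ175/+ against 24808, 26092 and 23211 CPM in WT. The groups were well apart, and the log2 change was 0.61 ± 0.13, with an adjusted p of 0.0729 in limma; it was 0.48 in dSPNs and 0.48 in iSPNs. Miat, another nuclear noncoding RNA, stood at 310, 501, 506 and 408 CPM in HttQ175/+ and at 221, 51.9 and 91.0 CPM in WT. Its change of 1.68 ± 0.40 had an adjusted p of 0.0903, against changes of 1.197 in dSPNs and 0.85 in iSPNs.

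U2surp, a component of the U2 splicing particle, stood at 304, 411, 245 and 543 CPM in HttQ175/+ and at 109, 0 and 76.8 CPM in WT. Adgrl2, the adhesion receptor latrophilin 2, stood at 343, 353, 584 and 458 CPM in HttQ175/+ and at 87.0, 0 and 205 CPM in WT. Gprasp2, which sorts G protein-coupled receptors, stood at 204, 453, 90.8 and 142 CPM in HttQ175/+ and at 0, 0 and 23.9 CPM in WT. In all of these the HttQ175/+ mice lay above the WT mice, but the WT values rest on few UMIs, and in WT replicate 2, with 8 nuclei, all were at 0. The log2 changes were 2.14 ± 0.44 for U2surp, 2.06 ± 0.46 for Adgrl2 and 2.27 ± 0.48 for Gprasp2, each with an adjusted p of 0.0729 in limma. In dSPNs and iSPNs the changes of these genes were 0.26 and 0.44, 0.24 and 0.40, and 0.81 and 0.60. Rtn3, a reticulon of the endoplasmic reticulum, gave 38 UMIs in HttQ175/+ mice and none in WT mice. It passed the filter on UMIs through the HttQ175/+ mice alone, so its adjusted p of 0.0729 is given as a description; its changes in dSPNs and iSPNs were 0.32 and 0.11.

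**Figure D3:**
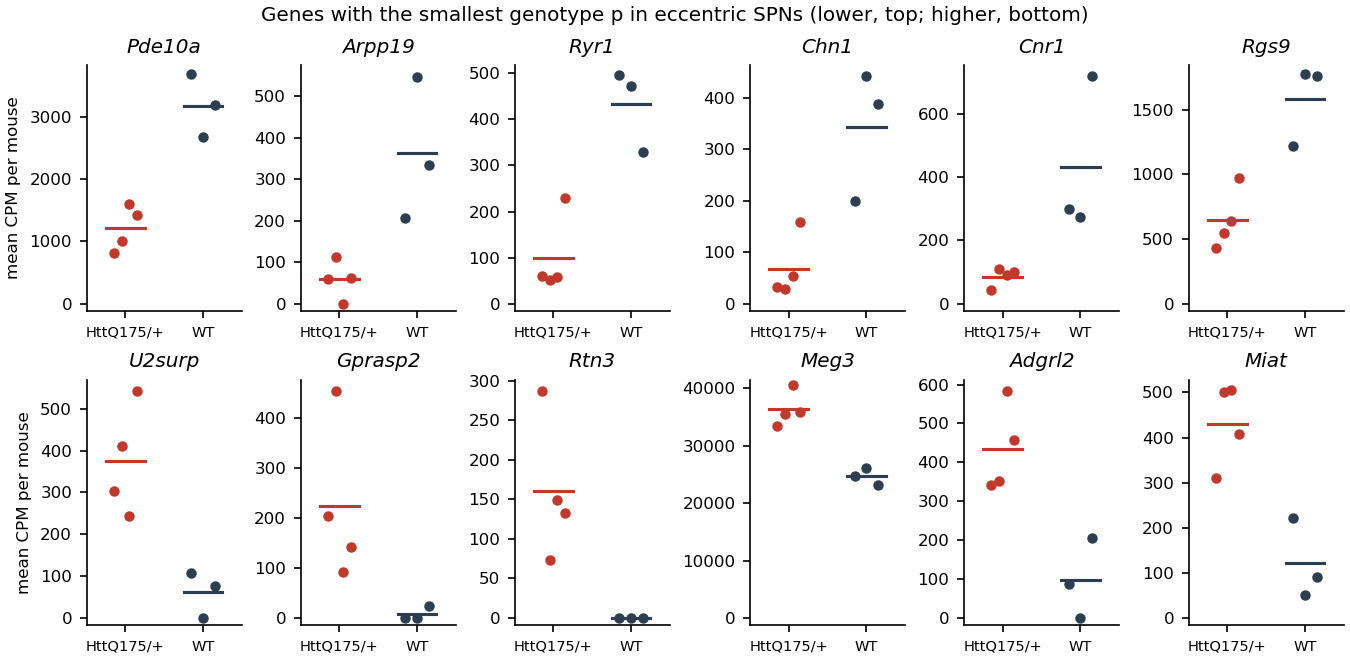
Mean CPM per mouse (vertical axes) in eccentric SPNs for the 6 genes of smallest p that were lower (top) and higher (bottom) in HttQ175/+ than in WT mice; points are mice and bars group means. In every panel the genotypes are apart, and Rtn3 is at 0 in all 3 WT mice.

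All gene lists of this report were chosen with earlier results of these data known, so their counts, medians and sums are a description only. Of 31 SPN identity genes tested, 24 had a change below 0, 10 were lower at an unadjusted p under 0.05 and none was higher. Over all 5071 genes, 1889 had a change below 0, 117 were lower at that unadjusted p and 341 higher. No list member passed the adjusted threshold. In 9 of them, Arpp19, Arpp21, Cnr1, Gnal, Meis2, Pde10a, Rgs9, Ryr1 and Scn4b, all HttQ175/+ mice stood below all WT mice, where 2.5% of all genes did. The median change of the list was -0.56 in eccentric SPNs, where that of all genes was 0.17, and the list's medians in dSPNs and iSPNs were -0.75 and -0.81. Gnal, the G protein subunit that couples Drd1 to adenylyl cyclase, stood at 220, 143, 139 and 168 CPM in HttQ175/+ and at 636, 758 and 305 CPM in WT. Its groups did not overlap, and its change of -1.41 ± 0.37 had an adjusted p of 0.123.

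Summed over the 33 SPN identity genes, eccentric SPNs held 7428, 7291, 9249 and 9170 CPM in HttQ175/+ mice, against 14061, 14963 and 16719 CPM in WT mice. The groups were far apart, in a list chosen with earlier results of these data known. In dSPNs the sums ran from 10848 to 12763 CPM in HttQ175/+ and from 21479 to 22635 CPM in WT, and in iSPNs from 12036 to 14702 CPM and from 24344 to 25159 CPM. On average Pde10a, which stood at 1060 CPM in oligodendrocytes, gave 1213 CPM of the eccentric sum in HttQ175/+ mice and 3177 CPM in WT mice. The WT eccentric SPNs thus held sums above those of HttQ175/+ dSPNs and below those of WT dSPNs.

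The dSPN identity genes summed to 828, 1251, 405 and 1297 CPM in HttQ175/+ eccentric SPNs and to 1845, 1531 and 2038 CPM in WT ones, with no overlap, and 7 of 8 tested had a change below 0, where 1889 of all 5071 genes had. Pdyn, the precursor of dynorphin peptides, stood at 50.6, 9.29, 25.8 and 18.6 CPM in HttQ175/+ and at 149, 279 and 155 CPM in WT. Its groups did not overlap, and the change of -1.75 ± 0.45 had an adjusted p of 0.112, against changes of -0.71 in dSPNs and -0.14 in iSPNs. For Drd1 and Tac1 the changes were -0.998 and -0.85, with adjusted p of 0.576 and 0.551 and groups that overlapped. The iSPN identity genes summed to 307 to 497 CPM in HttQ175/+ eccentric SPNs and to 395 to 801 CPM in WT ones, and these overlapped.

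**Figure D4:**
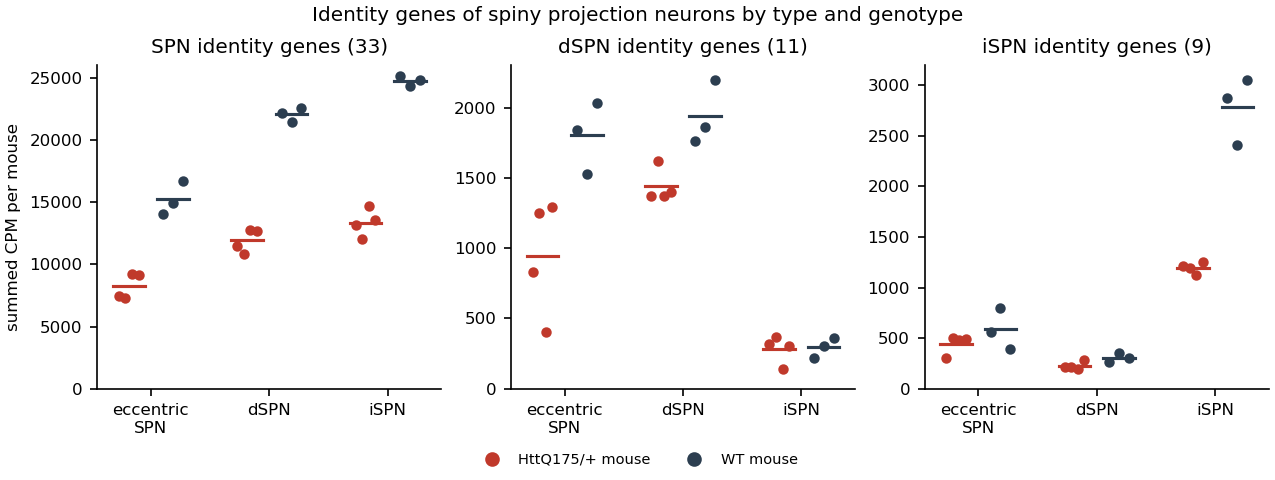
Summed CPM per mouse (vertical axes) of 33 SPN, 11 dSPN and 9 iSPN identity genes in eccentric SPNs, dSPNs and iSPNs of HttQ175/+ and WT mice; bars are group means. In the first panel HttQ175/+ eccentric SPNs lie between 7291 and 9249 CPM and WT ones between 14061 and 16719 CPM.

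Other lists were less even, and no member of any passed. Of 23 genes of dopamine signalling and calcium kinases, 14 had a change below 0, with a median of -0.46, against -0.50 in dSPNs and -0.48 in iSPNs; in 3 the HttQ175/+ mice lay below all WT mice and in 1, the kinase gene Camkk2, above. Immediate early genes had a median of -0.62 over 7 members and GABA-A receptor subunits 0.53 over 8. Of 28 potassium channel genes 12 were below 0, with a median of 0.19, close to the 1889 of 5071 and the 0.17 of all genes; Kcnip2, a subunit of A-type channels, changed by -1.26 with an adjusted p of 0.22. Of 5 nuclear long noncoding RNAs, Meg3 and Miat had all HttQ175/+ mice above all WT mice. Of 15 Polycomb genes the median was 0.18. Of 6 clustered protocadherins tested the median was 0.06, against 0.59 in dSPNs and 0.52 in iSPNs, and of 28 developmental transcription factors only 1 was read deeply enough to test.

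The eccentric SPN markers had changes of both signs with genotype. Col11a1 stood at 247, 478, 310 and 626 CPM in HttQ175/+ and at 369, 164 and 147 CPM in WT. These groups overlapped, and the change of 0.83 ± 0.39 had an adjusted p of 0.533. In dSPNs and iSPNs, where Col11a1 is far lower, the changes were 0.91 (adjusted p = 0.000482 in limma) and 0.81 (adjusted p = 0.00431). Mean Col11a1 was 55.1 CPM in HttQ175/+ and 8.08 CPM in WT dSPNs, and 40.7 and 3.98 CPM in iSPNs. In both types the HttQ175/+ mice stood above all WT mice. The value added before taking logs makes changes of such low genes smaller. Oligodendrocytes, the type taken to lack Col11a1, averaged 29.4 CPM, from 0 to 67.8 CPM over mice. Whether the changes in dSPNs and iSPNs were in the nuclei's own RNA was not tested. Otof stood at 109, 289, 208 and 314 CPM in HttQ175/+ and at 382, 377 and 465 CPM in WT. By CPM its groups were apart, on the scaled values they overlapped, and its change of -0.75 ± 0.38 had an adjusted p of 0.576. Casz1 stood at 67.0, 145, 315 and 155 CPM in HttQ175/+ and at 270, 39.0 and 200 CPM in WT, with a change of 0.10 ± 0.48 whose sign turned under 6 settings. Pcdh8 and Cacng5 had too few UMIs to be tested, 9 and 8 in HttQ175/+ mice and 5 and 6 in WT mice. The 5 markers summed to 466, 1023, 929 and 1197 CPM in HttQ175/+ and to 1073, 1094 and 871 CPM in WT, and these overlapped.

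Htt itself, on chromosome 5 from 34761740 to 34912534, stood at 223, 194, 332 and 341 CPM in HttQ175/+ eccentric SPNs and at 249, 200 and 229 CPM in WT ones. The groups overlapped, and the change of 0.25 ± 0.37 had an adjusted p of 0.862 in limma.

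**Figure D5:**
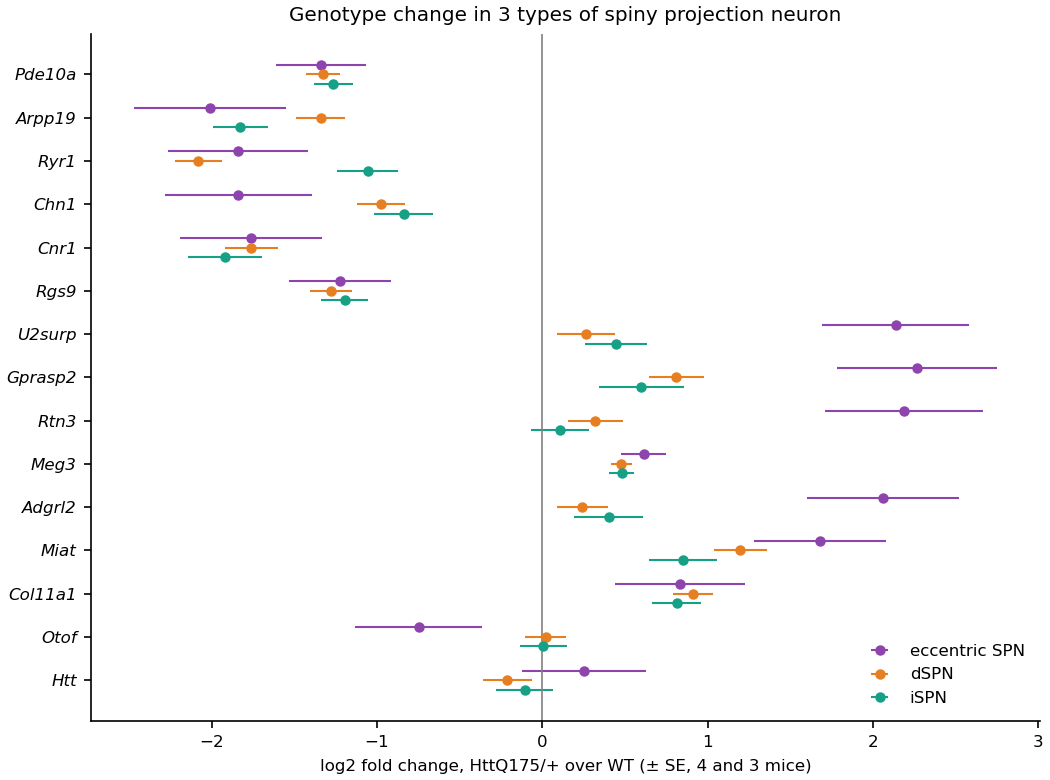
Log2 fold change of HttQ175/+ over WT (horizontal axis) in eccentric SPNs, dSPNs and iSPNs for the 12 genes of smallest p, 2 markers and Htt; bars are SEs over 4 and 3 mice. The changes of Pde10a lie between -1.34 and -1.26 in the 3 types, while that of Adgrl2 is 2.06 in eccentric SPNs and 0.24 in dSPNs.

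Whether the genotype change in eccentric SPNs differed from that in the other SPNs was tested on the difference between types within each mouse. In limma, 0 of 5071 genes differed from dSPNs (0.0%), with a smallest adjusted p of 0.491, and 0 differed from iSPNs (0.0%), with a smallest adjusted p of 0.464. At an unadjusted p under 0.05 there were 385 and 384 genes, and no setting called any. The genes of smallest p with a larger change than in dSPNs were Rpl13a, Prnp, St8sia3, Tmem138 and Pdxdc1, and those with a smaller change were Lactb, Xndc1, Dhps, Cecr5 and Ptbp1. Against iSPNs they were Rpl13a, St8sia3, Prnp, Mapt and Actl6a in one direction and Pdyn, Dhps, Armcx2, Mpc1 and Col27a1 in the other. Rpl13a, Prnp, St8sia3 and Actl6a gave 23, 23, 28 and 27 UMIs in HttQ175/+ eccentric SPNs and none in WT ones, so they passed the filter on UMIs through the HttQ175/+ mice alone. The median SE of these differences, 0.46 against dSPNs and 0.48 against iSPNs, limits what could be seen, and a p that misses the threshold does not show that the types respond alike.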

How the data were processed

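Nuclei from flash-frozen striatum were made into 1 droplet library per mouse with version 3 of the Chromium 3' chemistry, per the labels' protocols. The submitters' processing notes name Cell Ranger 3.0.2, Seurat and the mm10 build; how nuclei were filtered, typed and cleared of doublets was not given in the sources used here. Values were deposited as the natural log of 1 plus UMIs per 10000 of the nucleus, over 27998 genes. Whole UMIs were recovered, with 100% of 5824756 values above 0 whole within 0.02. Cell types are those of the authors' deposited annotation, whose genotypes matched the labels in all nuclei. All nuclei of the series held 1128 to 5632 UMIs. In all, 6 nuclei of the series shared a barcode between libraries, and Scrublet in scanpy 1.11.5 marked 60 nuclei (1.33%).

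Linear values were averaged per mouse and type, expressed as CPM, TMM-scaled and taken as log2 of CPM plus 41.9 (2 UMIs of the median mouse), which makes changes of low genes smaller. Printed CPM are unscaled. Mice needed 5 nuclei, and genes 15 summed UMIs and a UMI in 3 mice. HttQ175/+ was tested against WT with limma 3.58.1 (limma-trend) in R 4.3.3, adjusted by Benjamini-Hochberg at 0.05, and checked on simulated data. Exact intervals (Clopper-Pearson, 95%) and the permutation test used scipy 1.17.1. The limit of a count of 0 is 3 counts. No 2 mice of a group agreed within sampling noise.

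Named genes were, against other SPNs, the 15 genes with the largest excess and the 12 with the largest deficit, of the same direction in every mouse and averaging 100 CPM or more in the higher type, the 5 markers and list members; for genotype, up to 12 passing in each direction or else the 6 of smallest p, the 5 of smallest p in each direction for the difference between types, Htt, and up to 4 members per list. List values between types cover members of at least 50 CPM. Provisional names were left out, and a few genes are not reported here. The members and the gene lists were chosen with earlier results of these data known. Whether the mice came from separate litters is not given, and p-values measure the spread between these mice. Coordinates are from GENCODE vM21 on mm10. The alternatives were other pseudocounts, filters, scalings, sums, weights, voom, doublets or small nuclei left out, and each mouse left out.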

Additional observations from a re-analysis of the deposited data

Results flagged for a closer look

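For 73 values in eccentric SPNs of the 4 HttQ175/+ mice, the gap between the farthest mouse and its nearest neighbour, divided by the range of the group, was compared with Dixon's 95% critical value; chance passes about 1 in 20, and 9 passed. The share of eccentric SPNs among SPNs had a value of 0.902, with HttQ175/+ replicate 4 at 8.88% and the others at 5.26 to 5.62%. The level of Ryr1 had 0.953, again with HttQ175/+ replicate 4 high. In mt-Co2 the value was 1.00, since the mitochondrial transcript was read in HttQ175/+ replicate 2 and in no other HttQ175/+ mouse. The remaining values were 0.96 for Pde1b, 0.96 for Dhps, 0.89 for Rpl13a, 0.846 for Nell2, 0.845 for Scn4b and 0.842 for Hsph1. Each concerns eccentric SPNs of HttQ175/+ mice; the 3 WT mice are too few for this check.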

How the results depend on the processing

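No gene passed for genotype in eccentric SPNs with all settings as described, and the counts of higher and lower genes moved with several. They were 5 and 3 with a pseudocount worth 4 UMIs, 13 and 3 with no filter on low genes, 1 and 1 with the UMI minimum doubled, 0 and 1 without scaling, 3 and 1 with UMIs summed over nuclei, 4 and 2 with array weights and 1 and 6 with voom. Leaving out 1 mouse gave 0 to 5 higher and 0 to 6 lower genes, with 5 and 6 without WT replicate 2 and 2 higher without WT replicate 3. Pde10a was called lower in 8 of 18 settings, Meg3 and Rtn3 higher in 5 each. Rtn3 had no WT UMI and was tested through the HttQ175/+ mice alone, so its calls are a description. The differences from dSPNs and iSPNs stayed at 0 in every setting run. Of 1198 alternative values for genes named for genotype, 1148 kept their direction and side of the threshold, 44 came to pass it and 6 turned. The 6 were all of Casz1, whose change of 0.10 became -0.20 with summed UMIs, -0.24 with array weights, -0.29 without small nuclei, -0.55 with voom, -0.17 without HttQ175/+ replicate 3 and -0.54 without WT replicate 2, and 0.49 without WT replicate 1; the cause was not tested.

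Counts of genes 2-fold apart in every mouse against dSPNs (3 higher, 6 lower) became 8 and 13 with a pseudocount worth 1 UMI, 1 and 3 with 4 UMIs, 8 and 1 without scaling, 5 and 3 with scaling on genes read in every mouse, a setting chosen after seeing the data, and 13 and 40 at 1.5-fold. Leaving out a mouse gave 3 to 7 higher (7 without HttQ175/+ replicate 1, 5 without HttQ175/+ replicate 3 and 5 without WT replicate 2) and 6 to 11 lower (11 without HttQ175/+ replicate 2). Against iSPNs (7 higher, 15 lower), the higher count was 11 with 1 UMI and 3 with 4 UMIs, 14 at 1.5-fold and 7 to 11 without a mouse (11 without WT replicate 2). The lower count was 4 with 4 UMIs, 4 without scaling, 8 with scaling on genes read in every mouse, 50 at 1.5-fold and 15 to 19 without a mouse. Of 756 alternative values for genes compared between types, 740 moved by less than 1 SD over mice.

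The thinned share of eccentric SPNs with Drd1, 19.3%, was 30.1% unthinned and 15.8 to 21.9% without 1 mouse. The depth difference ran from -583 to -330 UMIs without 1 mouse and was -421 with means. No paired analysis was possible because no replicate numbers in the labels link HttQ175/+ mice to WT mice. WT replicate 2 gave the fewest eccentric SPNs, 8 with 16579 summed UMIs and a median of 2053.5 UMIs per nucleus. The lowest median per nucleus was that of HttQ175/+ replicate 2, at 1444 UMIs. The part of depth in the genotype counts was not tested.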

Other observations

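Sfmbt2, a Polycomb-associated gene named here after its values were seen and too low to be tested in eccentric SPNs, gave 3, 3, 1 and 4 UMIs in HttQ175/+ mice, 11 of 217202 in all, and none of 94156 UMIs in WT mice.

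Nuclei with eccentric SPN markers also occurred under another name. Of 288 nuclei annotated as Sst interneurons, 111 (38.5%) had at least 1 of the 5 eccentric markers and no UMI of Sst, Npy or Nos1, the genes that define these interneurons. Another 40 had both kinds of gene, 36 had only Sst, Npy or Nos1, and 101 had neither. Other genes of the 111 nuclei are set beside those of eccentric SPNs, with no test. Pde10a was at 450 CPM of their summed UMIs, against 1844 CPM in eccentric SPNs. Foxp2 was at 324 and 568 CPM, Meis2 at 830 and 1240 CPM, and Elavl2, a neuronal RNA-binding protein, at 348 and 19.3 CPM. The 101 nuclei with neither kind of gene held 584 CPM of Pde10a, 287 of Foxp2, 605 of Meis2 and 344 of Elavl2. Such levels were thus not particular to the 111 nuclei, and whether these are eccentric SPNs was not tested.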
